A study of Mus musculus with 8 samples.

Results

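Arg1 and 5 receptors for scavenging and for the uptake of dying cells, Mrc1, Stab2, Cd93, Cd36 and Mertk, were followed in cultured mouse astrocytes with and without Spp1. They were selected by exact gene name, and all 6 were found among the 3624 rows of the authors' deposited table. The choice was made with the fold changes of this same comparison in view, so their values are a description and no test is built on them. One group of 4 samples came from mice of the strain B6.129S6(Cg)-Spp1tm1Blh/J with the genotype Spp1-/-, the other 4 samples from C57BL/6 mice labelled wild type. The mice of both groups were 1 to 3 days old after birth, the tissue was retina plus optic nerve, and all cultures grew in DMEM/F12 with serum. Spp1 encodes osteopontin, a secreted protein of matrix and inflammation. The deletion was present in every cell of the mouse and the strain carries 129S6 ancestry, so genotype and strain background cannot be told apart. Cultures of this kind are grown from whole tissue and can hold cells other than astrocytes.

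Arginase 1 splits arginine into ornithine and urea, and in mouse macrophages it is a classic product of interleukin-4 and interleukin-13 signalling, together with the mannose receptor. Scavenger receptors bind altered lipoproteins, glycans, matrix fragments and dying cells, and carry them to the lysosome. Efferocytosis, the clearance of apoptotic cells, starts when phosphatidylserine on the dying cell is recognised directly or through bridging proteins. In the retina and optic nerve this work is known from microglia, border macrophages, astrocytes and the retinal pigment epithelium.

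Promoter windows from RefSeq on GRCm38.p6 were at hand for 4 of the 6 genes, Mrc1, Stab2, Cd36 and Mertk, and 3 of them are shown because these genes moved in 1 direction and their windows held matches to the motifs searched. Each run covers the 250 bases before the RefSeq start of transcription, on the strand of the gene. Capitals mark GAGGAA, the core bound by PU.1 and other ETS factors, or GGGCGG, the box bound by Sp and KLF factors, on either strand. The windows are chr2:14229164-14229413 on the plus strand for Mrc1, chr5:17835897-17836146 on the minus strand for Cd36, and chr2:128698665-128698914 on the plus strand for Mertk.
Mrc1: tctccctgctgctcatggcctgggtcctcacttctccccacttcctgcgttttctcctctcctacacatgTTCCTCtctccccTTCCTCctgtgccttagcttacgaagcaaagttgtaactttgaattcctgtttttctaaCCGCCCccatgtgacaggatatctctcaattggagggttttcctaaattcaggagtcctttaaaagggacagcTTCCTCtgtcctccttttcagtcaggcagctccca
Cd36: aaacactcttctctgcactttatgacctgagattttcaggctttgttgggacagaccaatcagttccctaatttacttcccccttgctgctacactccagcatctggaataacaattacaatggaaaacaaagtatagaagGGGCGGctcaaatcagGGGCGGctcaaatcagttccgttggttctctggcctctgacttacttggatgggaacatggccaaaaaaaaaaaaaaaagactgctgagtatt
Mertk: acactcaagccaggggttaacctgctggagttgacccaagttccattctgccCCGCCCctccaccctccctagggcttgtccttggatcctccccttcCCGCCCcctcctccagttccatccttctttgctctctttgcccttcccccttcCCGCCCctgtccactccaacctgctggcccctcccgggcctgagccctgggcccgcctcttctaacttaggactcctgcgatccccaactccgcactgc
Mrc1 held 3 matches to GAGGAA, which began at -180, -167 and -35 from the start, and 1 match to GGGCGG. At least 3 matches to GAGGAA were found in 0.429% of all 32851 windows of this length, and at least 1 in 23.3%. Cd36 held 2 matches to GGGCGG and Mertk held 3, where 16.7% of all windows held at least 2 and 8.47% at least 3. These limits of 2 and 3 matches are the counts seen in the windows shown, so the shares are a description and no test. The G and C content was 63.6% for Mertk, 49.6% for Mrc1, 53.2% for Stab2 and 43.2% for Cd36, beside a median of 52.4% over all windows. The Stab2 window matched neither motif. No window of the 4 held TTCNNNNGAA (STAT6), TGANTCA (AP-1), TTGCGCAA (C/EBP), TATAAA (the TATA box), TGCTGAC (a MAF motif) or AGGTCANAGGTCA (a nuclear receptor direct repeat), found in 5.85%, 6.75%, 0.164%, 12.4%, 3.81% and 0.0335% of all windows. The motifs marked in capitals do not overlap each other. A match describes letters, not a bound site. The window of Cd36 lies inside the longer span that GENCODE gives the gene. Those of Mrc1 and Stab2 overlap the GENCODE spans of their genes in part.

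Values in each sample were not analysed here, because the table gives 1 line per gene for the whole comparison. Each line holds a mean normalized count over all samples and a fold change on the log2 scale with an error. A positive fold change means higher in the knockout: the direction was taken from Spp1 itself, which the authors' deposited table gives at -5.90 (standard error 0.11). Errors in parentheses after a fold change below are standard errors as deposited. An implied mean is the level in 1 genotype worked out from the mean and the fold change with both groups taken as equal in size. Depth is unknown, and the spread between samples is not given apart from the deposited errors. The labels do not say whether samples were separate cultures, so p-values set the difference only against the spread between these samples. The authors' deposited table lists Y-linked genes near 0 in wild type (Ddx3y, implied means of 1605 in the knockout and 0.16 in wild type), so sex and genotype cannot be told apart.

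All 6 genes were higher in the knockout in the authors' deposited table, where 1991 genes, or 12% of about 16644 genes tested, were listed as higher. Because the genes were picked on this contrast, nothing is read from that count. Their log2 fold changes ran from 1.49 to 6.30, beside a median of 1.31 over all genes listed as higher. In bulk RNA, more cells of a type and more RNA per cell cannot be told apart.

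**Figure D1:**
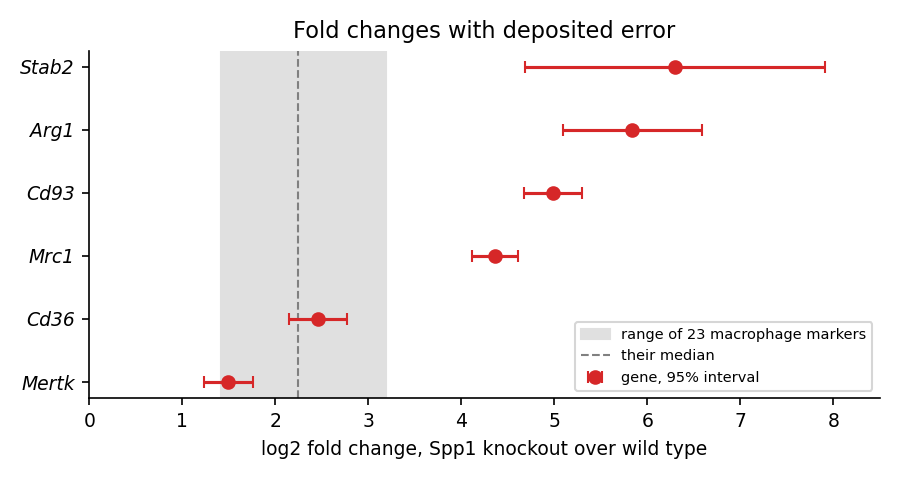
Log2 fold change of knockout over wild type (x axis) for each gene (rows), with bars for the 95% interval from the deposited standard error. The grey band spans the 23 macrophage markers, 1.42 to 3.19, with a dashed line at their median of 2.25. Stab2, Arg1, Cd93 and Mrc1 lie to the right of the band, and Cd36 and Mertk inside it. The genes were picked with these fold changes in view, so their place beside the band is a description.

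Arg1, the enzyme of the group, was high in the knockout and low in wild type. Its implied mean normalized count was 370 in the knockout and 6.46 in wild type, from the authors' deposited table. The wild-type level was therefore 1.75% of the knockout level. The log2 fold change of Arg1 was 5.84 with a deposited standard error of 0.38, which is 57.3-fold with a 95% interval of 34.1 to 96.3 (adjusted p = 2.31e-50 in the authors' deposited table). The gene (ENSMUSG00000019987.9) lies on the minus strand of chromosome 10 at 24915221 to 24927484 in GRCm38, with 8 exons in its longest coding transcript. By fold change it ranked 19 of 3624 rows, and by mean count 2277.

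Mrc1 encodes the mannose receptor, which takes up glycoproteins ending in mannose, fucose or N-acetylglucosamine and also binds collagen. Its implied mean was 2134 in the knockout and 104 in wild type, from the authors' deposited table. The log2 fold change was 4.36 with a deposited standard error of 0.13, or 20.6-fold with an interval of 17.4 to 24.4 (adjusted p = 3.76e-263 in the authors' deposited table). Mrc1 had the largest positive Wald statistic of the whole table, 34.9, where the Wald statistic is the fold change divided by its error. The gene spans 102666 bases on the plus strand of chromosome 2, from 14229392 to 14332057, and its promoter window is the one with 3 GAGGAA matches shown above.

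Cd93 encodes a transmembrane lectin of endothelial and myeloid cells that was named as a receptor for complement C1q and that takes part in the clearance of apoptotic cells in mice. Its implied mean was 3396 in the knockout and 107 in wild type, from the authors' deposited table. The log2 fold change of 4.99, with a deposited standard error of 0.16, corresponds to 31.7-fold with an interval of 25.6 to 39.4 (adjusted p = 6.46e-212 in the authors' deposited table). Its Wald statistic of 31.3 was the next largest after that of Mrc1. The compact gene covers 6924 bases on the minus strand of chromosome 2, from 148436640 to 148443563, with 2 exons.

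Stab2 encodes stabilin 2, a hyaluronan receptor best known from sinusoidal endothelium of the liver, which also binds phosphatidylserine. It had the highest fold change and the lowest level of the 6. The implied mean was 103 in the knockout and 1.31 in wild type, from the authors' deposited table. The log2 fold change was 6.30 with a deposited standard error of 0.82, or 78.7-fold, with an interval of 25.8 to 240 that was the widest of the 6 (adjusted p = 4.55e-13 in the authors' deposited table). With a normal prior of SD 1 the log2 value of Stab2 came to 3.76, below those of Arg1, Cd93 and Mrc1 under the same prior (5.10, 4.87 and 4.30). The gene lies at 86841198 to 87008025 on the minus strand of chromosome 10. Antisense genes such as Gm16268 overlap Stab2, and Gm14011 overlaps Mertk, and without a stated strand setting their reads cannot be told apart from those of the receptors.

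Cd36 encodes a class B scavenger receptor for oxidised lipoproteins, long-chain fatty acids and thrombospondin 1. Its implied mean was 1268 in the knockout and 230 in wild type, from the authors' deposited table. The log2 fold change was 2.46 with a deposited standard error of 0.16, or 5.50-fold with an interval of 4.44 to 6.83 (adjusted p = 7.98e-52 in the authors' deposited table). Cd36 shares chromosome 5 with Spp1. Their starts are 86.7 Mb apart.

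Mertk encodes a receptor tyrosine kinase of the TAM family that binds apoptotic cells through the bridging proteins Gas6 and protein S, and it is the receptor with which the retinal pigment epithelium takes up shed photoreceptor tips. The implied mean was 997 in the knockout and 354 in wild type, from the authors' deposited table. Its log2 fold change of 1.49, with a deposited standard error of 0.13, was the smallest of the 6 and corresponds to 2.82-fold with an interval of 2.35 to 3.38 (adjusted p = 5.88e-27 in the authors' deposited table). Mertk lies at 128698956 to 128802894 on the plus strand of chromosome 2, so 3 of the 6 genes share chromosome 2 and another 2 share chromosome 10.

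Ordered by fold change, the genes ran Stab2, Arg1, Cd93, Mrc1, Cd36 and Mertk. The gaps between neighbours are given with their combined deposited standard errors, as a description, since the genes were chosen on these values and the estimates come from the same samples. Stab2 and Arg1 lay 0.46 apart on the log2 scale with a combined error of 0.91, so their order is not settled by these values. The gap between Arg1 and Cd93 was 0.85 (combined error 0.41), and that between Cd93 and Mrc1 0.62 (0.20). The widest gap lay between Mrc1 and Cd36, 1.90 (0.20), and Cd36 and Mertk were 0.97 apart (0.21).

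**Figure D2:**
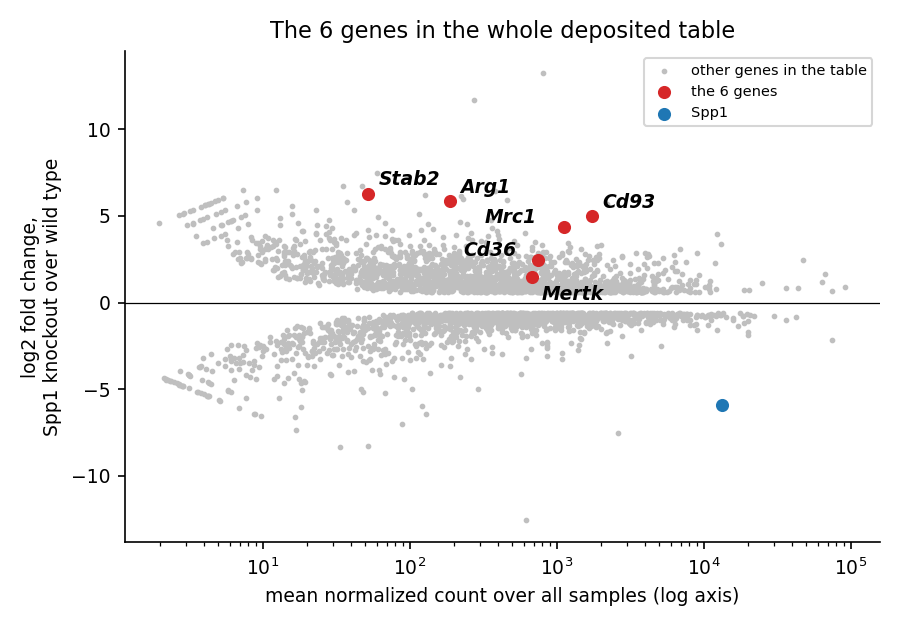
Log2 fold change of knockout over wild type (y axis) against the mean normalized count over all samples (x axis, log scale) for every row of the deposited table, with the 6 genes in red and Spp1 in blue. Mrc1 and Cd93 combine high counts (means of 1119 and 1751) with log2 fold changes of 4.36 and 4.99, whereas Stab2 and Arg1 lie at lower counts.

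Levels were compared between genes per kilobase of the longest annotated transcript. In the knockout the implied mean per kilobase was 509 for Cd93, 397 for Mrc1, 373 for Cd36, 250.4 for Arg1, 232 for Mertk and 12.5 for Stab2, from the authors' deposited table. In wild type the same quantity was 82.2 for Mertk, 67.7 for Cd36, 19.3 for Mrc1, 16.0 for Cd93, 4.37 for Arg1 and 0.16 for Stab2. Cd93 and Mrc1 therefore led in the knockout, and Mertk and Cd36 in wild type. Per kilobase of coding sequence, Cd36 (895) stood above Mrc1 (489) in the knockout and above Mertk in wild type (163 against 119), and Cd93 above Mrc1 in wild type (55.4 against 23.7), so those orders depend on the length used. The table gives no spread for these levels, so neighbours in the order were not separated.

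**Figure D3:**
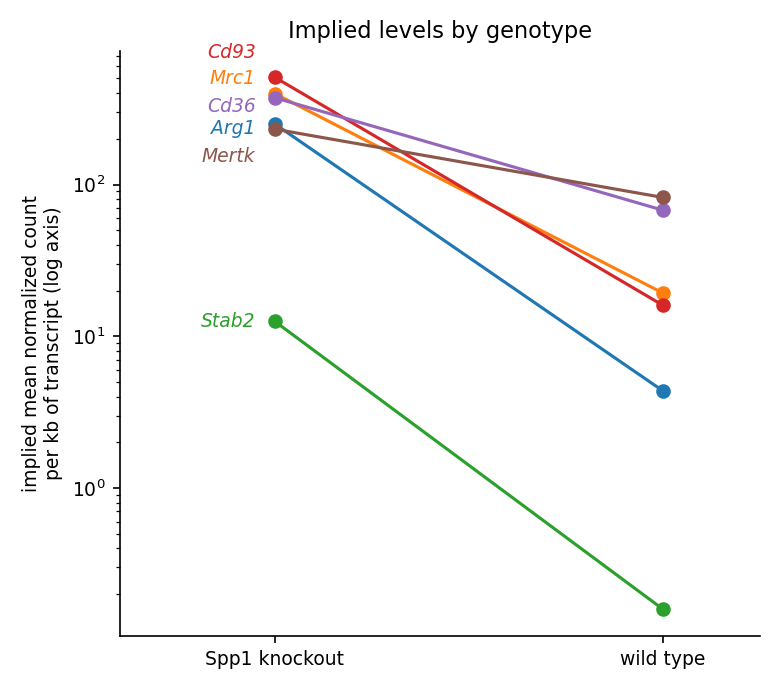
Implied mean normalized count per kilobase of transcript (y axis, log scale) in knockout and wild-type cultures, with 1 line per gene. Mertk and Cd36 have the flattest lines, and Stab2 and Arg1 the steepest.

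The other genes of these pathways were taken from lists, and genes outside the table may have missed a limit or not been tested. For comparison, the whole table lists 3624 rows for about 16644 genes tested, and 54.9% of its rows were higher. Counts of the lists are a description beside these shares. Among other scavenger receptors, 10 of 30 genes were listed, 8 higher and 2 lower, and their median was 1.21 on the log2 scale, beside 0.66 over the whole table. Cd68, a lysosomal sialomucin, stood at 2.25 with a deposited standard error of 0.15, and Cxcl16, a transmembrane chemokine that binds oxidised lipoprotein, at 2.05 (0.16) in the authors' deposited table. Msr1, the class A scavenger receptor, rose by 1.55 (0.13) and the collectin Colec12 by 1.37 (0.11), per the authors' deposited table. Lower in the knockout were Scarb1, the receptor for high-density lipoprotein, at -0.77 (0.17), and the lectin receptor Ly75 at -1.40 (0.33), in the authors' deposited table. Stab1, the paralog of Stab2, rose by 1.67 (0.14) from a much higher level, with implied means of 10897 in the knockout and 3429 in wild type, from the authors' deposited table. Cd163, Marco and Mrc2, the paralog of Mrc1, were not in the table.

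Receptors and bridging proteins for apoptotic cells split in direction. Of 32 genes 17 were listed, 12 higher and 5 lower, with a median of 1.67. Some of the higher genes, such as C1qa and Trem2, are also on lists of macrophage markers. Without genes of several lists, 7 higher genes were left, and Thbs1 dropped out of the lower ones. The lipid receptor genes Cd300lb and Cd14 rose by 2.48 (deposited standard error 0.20) and 2.13 (0.14), and Sirpa, an inhibitory receptor for Cd47, by 1.30 (0.11), in the authors' deposited table. Pros1, which encodes the Mertk ligand protein S, rose by 0.75 (0.10) in the authors' deposited table. Gas6 and the TAM receptors Axl and Tyro3 were not in the table. The 5 lower genes included the bridging proteins Thbs1, a Cd36 ligand, at -1.37 (0.14), and Mfge8, which links phosphatidylserine to integrins, at -0.97 (0.15), with the integrin gene Itgav at -0.69 (0.15), in the authors' deposited table.

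Genes that act after binding were higher wherever listed. Of 30 engulfment and degradation genes 12 were listed, all 12 higher, with a median of 1.59, beside 54.9% higher over all rows. Syk, a kinase of immune receptor signalling, rose by 2.56 (deposited standard error 0.14), and Cybb, the catalytic subunit of the phagocyte oxidase, by 2.70 (0.19), in the authors' deposited table. Dock2 and Vav1, which activate Rac in blood cells, rose by 2.33 (0.17) and 2.22 (0.20) in the authors' deposited table. The broadly expressed Dock1, Rac1 and Gulp1 were not in the table.

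Other genes of arginine metabolism lay on both sides of 0. Of 35 genes 11 were listed, 4 higher and 7 lower, with a median of -0.67. Gatm, which uses arginine to make a creatine precursor, rose by 1.73 (deposited standard error 0.11), and the arginine transporter genes Slc7a7 and Slc7a2 rose by 1.20 (0.20) and 0.88 (0.15), in the authors' deposited table. Slc7a1, another arginine transporter, stood at -0.90 (0.19), and Srm, which makes spermidine, at -0.81 (0.11), in the authors' deposited table. Arg2, Odc1 and Nos2, the enzyme that competes with arginase for arginine, were not in the table. Of 28 genes used as companions of Arg1 and Mrc1 in alternative activation, 7 were listed, 6 higher and 1 lower, with a median of 1.60, among them the transglutaminase gene Tgm2 at 2.64 (0.16) and the chemokine gene Ccl7 at 2.85 (0.23) in the authors' deposited table. The exception was Flt1, a receptor for vascular endothelial growth factor, at -0.98 (0.26) in the authors' deposited table, and Chil3 and Retnla were not listed. Genes of classical activation were higher in all 8 of 20 that were listed, with a median of 1.88, such as Irf5 at 1.84 (0.15) and Cd86 at 2.28 (0.24) in the authors' deposited table. Of these 8 genes, 5 had an adjusted p of at most 0.01 and 4 a mean count of at least 100. Over all rows 54.9% were higher.

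Regulators known to act on these genes gave 12 higher and 4 lower of 32, with a median of 1.07. Il4ra, the interleukin-4 receptor chain upstream of Arg1 and Mrc1, rose by 2.82 (deposited standard error 0.20), and its transcription factor Stat6 by 0.92 (0.17), in the authors' deposited table. The receptors Csf1r and Csf2rb rose by 2.76 (0.20) and 2.94 (0.26), and the macrophage factor gene Maf by 1.19 (0.12), in the authors' deposited table. Klf4, Klf2, Atf4 and Myc were lower: the authors' deposited table gave -1.50, -1.24, -0.96 and -0.77 on the log2 scale. Pparg, which acts on Cd36, was not listed.

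Partners of single receptors gave mixed directions. The Cd93 family and ligands had 4 of 9 genes listed, 1 higher and 3 lower, with a median of -0.88. Thbd, the thrombomodulin gene of the same lectin family, rose by 1.96 (deposited standard error 0.13), whereas Clec14a stood at -2.81 (0.71), Igfbp7, a Cd93 ligand, at -1.15 (0.28) and Cd248 at -0.62 (0.13) in the authors' deposited table. Fatty acid genes and other partners of Cd36 gave 11 higher and 2 lower of 29, with a median of 1.02. The lower genes were Thbs1, given above, and Thbs2, at -0.90 (0.11) in the authors' deposited table. Among the higher genes were the immune signalling genes Tlr2, Tlr4, Tlr6 and Lyn, which do not handle fatty acids. They stood at 1.19 (0.14), 1.15 (0.20), 1.02 (0.38) and 0.81 (0.12) in the authors' deposited table. Lpl, the lipoprotein lipase gene, rose by 1.43 (0.15) and the lipid droplet gene Plin2 by 1.14 (0.11), in the authors' deposited table. Hyaluronan genes and Stab2 ligands gave 4 higher and 5 lower of 22, with a median of -0.80. The 4 higher genes, Itgam, Tgfbi, Itgb2 and Lyve1, are also on lists of macrophage markers, and 0 higher genes were left without genes of several lists. Has2, a hyaluronan synthase, stood at -0.80 (0.24), and Postn, which encodes periostin, at -1.63 (0.14), in the authors' deposited table.

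**Figure D4:**
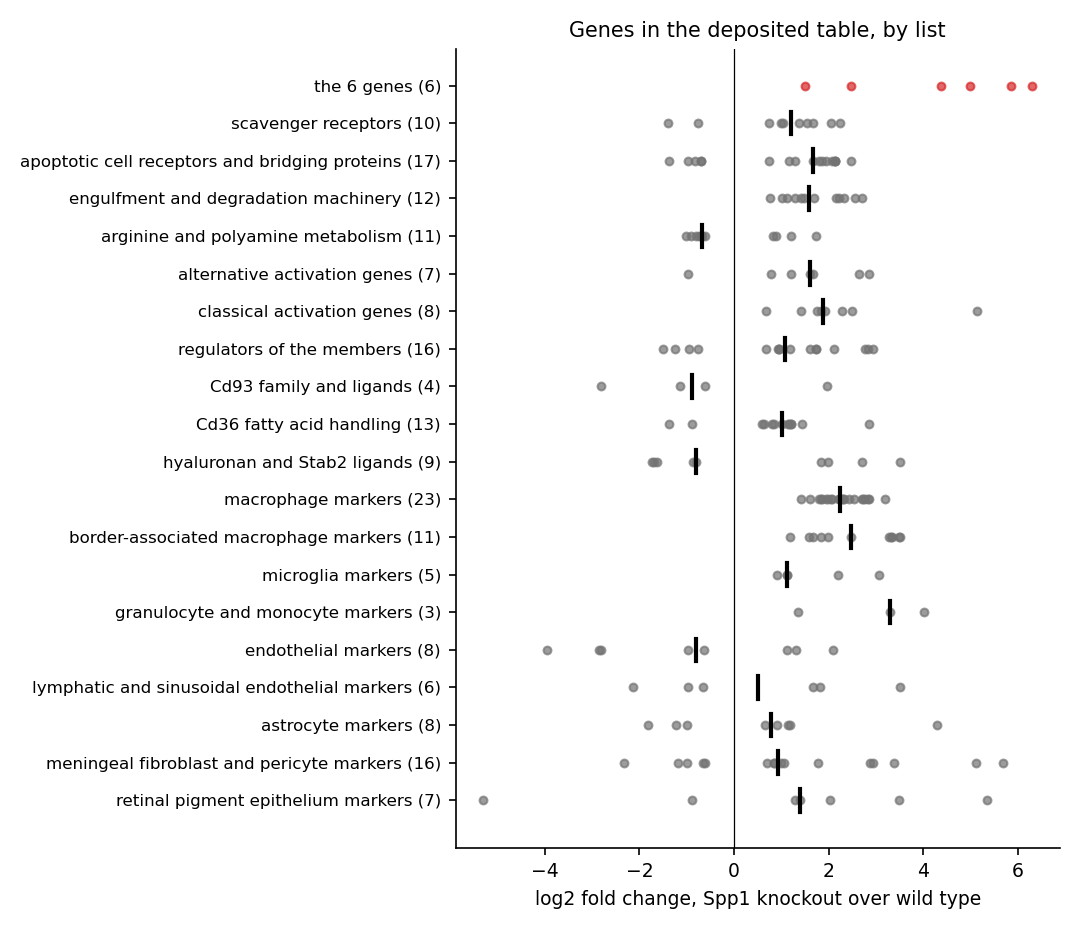
Log2 fold change of knockout over wild type (x axis) for every gene in the deposited table on each list (rows, with the number listed), with black ticks at list medians and the 6 genes in red on top. All 23 macrophage markers are positive, while endothelial, hyaluronan and arginine genes lie on both sides of 0.

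Markers of cell types that could carry these receptors moved beside them, and their part in the result was not tested. All 23 of 23 macrophage markers were higher, from 1.42 to 3.19, with a median of 2.25. Over all rows 54.9% were higher. The macrophage list was written with earlier results of these data known, so its full count is a description. The implied means of these markers summed to 202961 in the knockout and 40801 in wild type in the authors' deposited table. Stab2, Arg1, Cd93 and Mrc1 stood above each of the 23 markers, Mrc1 by 2.12 over their median. Cd36 stood above 16 of them and Mertk above 1. Markers of border-associated macrophages were higher in all 11 of 19 listed, with a median of 2.47, among them Ms4a7 at 3.32 (deposited standard error 0.19) and Siglec1 at 3.26 (0.20) in the authors' deposited table. Lyve1, a hyaluronan receptor on such cells, had implied means of only 7.76 in the knockout and 0.69 in wild type in the authors' deposited table, and Cd163, Folr2 and F13a1 were not listed. Microglia markers were higher in all 5 of 15 listed, with a median of 1.12, led by Fcrls at 3.07 (0.20) and P2ry12 at 2.19 (0.26) in the authors' deposited table.

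Endothelial markers, relevant for Cd93 and Stab2, gave 3 higher and 5 lower of 25, with a median of -0.81, beside 54.9% higher over all rows. Kdr rose by 2.08 (deposited standard error 0.18) and Cdh5 by 1.11 (0.11), whereas Esam stood at -3.96 (0.64) and Plvap at -2.84 (0.48), in the authors' deposited table. Pecam1, Tie1 and Cldn5 were not listed. Lymphatic and sinusoidal markers gave 3 higher and 3 lower of 18, with a median of 0.51. The higher ones were Lyve1 at 3.50 (1.27), the Fc receptor gene Fcgr2b at 1.81 (0.13) and Stab1 at 1.67 (0.14), per the authors' deposited table. The lower ones were Reln at -2.12 (0.27), Wnt2 at -0.98 (0.30) and the lymphatic factor gene Prox1 at -0.65 (0.19), per the authors' deposited table. Lyve1 and Stab1 are also on the list of border-associated macrophage markers. Without genes of several lists, 1 higher gene was left, Fcgr2b, and the same 3 lower ones. Astrocyte markers gave 5 higher and 3 lower of 21, with a median of 0.78, and Gfap, which defines the labelled cell type, had implied means of 91923 in the knockout and 58315 in wild type in the authors' deposited table. The 3 lower astrocyte markers were S100b, at -1.82 (0.15), the fatty acid binding protein gene Fabp7, at -1.23 (0.10), and Pax2, at -0.98 (0.26), while Gjb6 and Aqp4 rose by 4.28 (0.37) and 1.15 (0.16), per the authors' deposited table. The macrophage lysozyme gene Lyz2 had implied means of 79440 in the knockout and 14666 in wild type in the authors' deposited table. Meningeal fibroblast and pericyte markers gave 11 higher and 5 lower of 26, with a median of 0.92. Some had fold changes in the range of the 6 genes: the prostaglandin D synthase gene Ptgds stood at 5.68 (0.59), the anion transporter gene Slc22a8 at 5.10 (0.44), Igf2 at 3.38 (0.18), Cldn11 at 2.93 (0.15) and Dcn at 2.87 (0.16) in the authors' deposited table. The lower ones included the mural cell genes Cspg4 at -2.33 (0.14) and Notch3 at -0.65 (0.14) in the authors' deposited table. The rest of the lower ones were Cd248 at -0.62 (0.13), Crabp2 at -1.18 (0.35) and Acta2, per the authors' deposited table. Acta2 had implied means of 24048 in the knockout and 48110 in wild type. The list joins fibroblast and pericyte genes, so its count and median stand for neither cell type alone. Retinal pigment epithelium markers, relevant for Mertk and added later, gave 5 higher and 2 lower of 14, with a median of 1.39. Only Mitf and Stra6 among them had a mean count of at least 100, and they rose by 1.28 (0.22) and 1.39 (0.24). The lower ones were Dct at -5.30 (1.46) and Rlbp1 at -0.88 (0.36), in the authors' deposited table. The count and median therefore rest mostly on genes below that mean count. Rpe65, Lrat, Otx2, Pmel, Rgr, Tyr and Tyrp1 were not listed.

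Listed neighbours of the 6 genes on their chromosomes lay in both directions. Within 500 kb of the 6 genes lay 54 other protein-coding genes, of which 10 were listed, 4 higher and 6 lower. The whole table lists 3624 rows for about 16644 genes tested, 54.9% of them higher. Beside Cd93, Thbd at 28.5 kb rose as given above, and Sstr4, a somatostatin receptor gene at 39.9 kb, by 3.09 (deposited standard error 0.56) in the authors' deposited table. Beside Mertk, Tmem87b at 15.2 kb rose by 0.70 (0.16) and Fbln7, a fibulin gene at 60.1 kb, by 0.96 (0.24), while Ckap2l stood at -0.92 (0.13), in the authors' deposited table. Around Arg1, Enpp3 and Ccn2 were lower, at -1.33 (0.49) and -1.57 (0.11), and Hacd1 near Mrc1 stood at -0.91 (0.19), in the authors' deposited table. Gnai1 near Cd36 was lower too, at -0.81 (0.26) in the authors' deposited table.

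Likeness could be measured only by closeness of fold change among genes with a mean count within 2-fold, not over samples. Nearest to Mrc1 were the water channel gene Aqp1, 4.43 (deposited standard error 0.22), and Tlr8, a receptor for RNA, 4.03 (0.23), and Aqp1 and Mrc1 were also nearest to Cd93, in the authors' deposited table. Arg1 was closest to the Y-linked Uty, 6.01 (0.38), and to the prostaglandin receptor gene Ptgdr, 6.14 (0.33), in the authors' deposited table. Stab2 was closest to the transporter genes Slc6a13, 6.73 (0.95), and Slc6a20a, 6.74 (0.82), in the authors' deposited table. Cd36 lay next to Adssl1 and Rnf150, both at 2.43, and Mertk next to Pygl, 1.49, and Arrb2, 1.50, in the authors' deposited table.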

How the data were processed

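RNA was sequenced from 8 samples of cultured astrocytes, 4 from Spp1 knockout and 4 from wild-type mice, grouped by the sample titles. Tools named in the submitters' processing notes are STAR 2.7, CASAVA 1.8 and DESeq2 1.30.1, with the build GRCm38 and no roles. How genes were annotated, counted and filtered was not stated in the labels or headers, so it is not given here. Per the file headers, the authors deposited for each gene a mean normalized count (a size-factor scaled signal), a log2 fold change, the standard error of that change, a Wald statistic (a score), and p-values before and after adjustment. The authors' deposited table held 0 columns of per-sample values, so the count test planned for such values was not run and depth per sample is unknown. The authors had filtered the deposited rows: the largest adjusted p-value was 0.0499 and the smallest fold change, in absolute log2 terms, 0.58. From adjusted against raw p-values of 20 genes, about 16644 genes were tested (range over these genes 16593 to 16707) as an estimate.

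Implied means, 95% normal intervals, list counts and distances were computed with Python 3.11.15, pandas 2.3.3, numpy 2.4.6 and scipy 1.17.1. Gene positions and lengths came from GENCODE M21 on GRCm38, which matched 3586 rows, and promoters from RefSeq. The 6 genes and 18 lists were chosen with earlier results of these data known, and 2 lists (retinal pigment epithelium markers and Y-linked genes) were added after the table was seen. The rule for naming took Spp1, the 6 genes, the up to 4 genes of a list with the lowest adjusted p, up to 3 exceptions, the 2 nearest genes in fold change and neighbours within 500 kb. Some genes that the rule names are left out of the text. Other named genes were chosen after their values were seen. Alternatives were other limits on fold, adjusted p-value and mean, a normal prior of SD 1, interval ends, coding length and a smaller window.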

Additional observations from a re-analysis of the deposited data

How the results depend on the processing

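All 6 genes stayed higher with a log2 limit of 1, at an adjusted p of at most 0.01 and under Bonferroni adjustment, and 5 of them, all but Stab2, had a mean count of at least 100. With a normal prior of SD 1, the log2 fold change was 5.10 for Arg1 and 3.76 for Stab2, and the other 4 moved by less than their standard error. The lower ends of the 95% intervals were 5.09 for Arg1, 4.12 for Mrc1, 4.69 for Stab2, 4.68 for Cd93, 2.15 for Cd36 and 1.23 for Mertk. Per kilobase of coding sequence the implied knockout levels were 382 for Arg1, 1758 for Cd93 and 895 for Cd36. Within 250 kb, 6 neighbours were listed in place of 10. Over the 18 lists 166 genes were listed, 125 higher and 41 lower, beside 54.9% higher over all rows. The lists were written with earlier results of these data known, so these counts are a description. The higher count ranged from 102 to 118 over the other 4 settings and was 134 with the 2 added lists. Counts of single lists moved by over 1.5 times for 4 lists at the fold limit, 1 at the adjusted p limit, 2 at the mean limit and 5 when genes shared by several lists were left out. No paired analysis was possible because the table gives no values per sample, and for the same reason leaving out replicates and a second count tool were not run.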

Other observations

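Granulocyte, monocyte and mast cell markers had 3 of 16 genes listed, all 3 higher, beside 54.9% higher over all rows. Kit, the stem cell factor receptor of mast cells and melanocytes, had implied means of 489 in the knockout and 30.3 in wild type and rose by 4.01 on the log2 scale (deposited standard error 0.28) in the authors' deposited table. Plac8 rose by 3.30 (0.50) and Csf3r, a receptor of neutrophils, by 1.35 (0.30), in the authors' deposited table. The neutrophil genes S100a8 and S100a9 and the mast cell genes Cpa3 and Mcpt4 were not listed. Of 7 Y-linked genes 4 were listed, all 4 higher, with a median of 8.86, and their implied means summed to 3517 in the knockout and 22.4 in wild type in the authors' deposited table.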
